A study of Mus musculus with 8 samples.

Results

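The nuclear genes of the mitochondrial respiratory chain were followed in mouse peritoneal macrophages exposed to LECT2 (leukocyte cell-derived chemotaxin 2), which hepatocytes secrete. Members were taken by symbol. They were all mouse genes whose name begins with Ndufa, Ndufb, Ndufc, Ndufs, Ndufv, Uqcr, Cox4 to Cox8 or Atp5, together with Sdha, Sdhb, Sdhc, Sdhd and Cycs, each read from its brightest probe. A gene table of RefSeq held 116 such genes, 19 of them pseudogenes without a probe and 3 of them protein-coding genes without a probe. Of the 94 with a probe, 91 passed the background filter and were tested among 26123 genes in all. The 3 that did not pass were Cox7b2, Cox8b and Cox8c, subunit isoforms known from testis and muscle, which were above background on at most 1 of 8 arrays.

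RNA of LECT2-treated cells, labelled with Cy3, and RNA of untreated cells, labelled with Cy5, was hybridised together on 8 Agilent arrays, with no dye swap. The 4 groups were LECT2 at 0.5 µg/ml (low dose) for 3.5 h or 48 h and LECT2 at 5 µg/ml (high dose) for 3.5 h or 48 h, with 2 arrays each, from independent experiments on different mice. All cells, controls included, grew in low-glucose DMEM with 20% fetal bovine serum, and the labels used here give no strain, sex or age. The channel labels give the early time as 3 h where the titles give 3.5 h. Throughout, a positive log2 ratio means more RNA with LECT2 than in the control, which is the sign-turned form of the deposited value, and any effect of the dyes that all arrays share cannot be told apart from that of the protein.

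The respiratory chain passes electrons from NADH through complex I, or from succinate through complex II, to ubiquinone, then through complex III and cytochrome c to oxygen at complex IV, while complexes I, III and IV pump protons and complex V makes ATP as the protons flow back. Complex II is also an enzyme of the tricarboxylic acid cycle and is the only complex of the chain encoded wholly in the nucleus. Activated macrophages are known for a shift toward glycolysis and for the accumulation of succinate and itaconate, the latter an inhibitor of complex II made by the enzyme Acod1. Of the tested members 36 belong to complex I, 4 to complex II, 8 to complex III, 17 to complex IV, 17 to complex V, 8 are the complex I assembly factors Ndufaf1 to Ndufaf8, which share the Ndufa prefix, and the last is Cycs, cytochrome c. Ndufa4 and its paralogue Ndufa4l2 were placed with complex IV, where the Ndufa4 protein is found.

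Genes of this chain are known targets of the transcription factors NRF1, GABP (an ETS factor), YY1 and ERR, and the promoters of 3 members that fell at the high dose and of Cycs, the classic NRF1 target, which did not pass the test, are shown to let these letters be seen beside the values. Of the 12 members lower at the high dose and 3.5 h with a promoter window, only these 3 carry NRF1 or ETS letters. They do not stand for the rest. Each line is the 120 bases upstream of the RefSeq transcription start on assembly GRCm38.p6, read 5′ to 3′ on the gene's strand, with the motif letters in capitals.
Sdhb, chr4:140961151-140961270, plus strand, NRF1 letters: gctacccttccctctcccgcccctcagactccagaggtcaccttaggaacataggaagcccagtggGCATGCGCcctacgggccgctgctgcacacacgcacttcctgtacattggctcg
Sdhd, chr9:50603850-50603969, minus strand, ETS letters: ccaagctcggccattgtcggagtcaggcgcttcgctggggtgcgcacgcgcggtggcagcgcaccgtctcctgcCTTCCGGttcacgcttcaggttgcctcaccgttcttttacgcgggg
Ndufaf4, chr4:24897963-24898082, plus strand, NRF1 letters on both strands, overlapping: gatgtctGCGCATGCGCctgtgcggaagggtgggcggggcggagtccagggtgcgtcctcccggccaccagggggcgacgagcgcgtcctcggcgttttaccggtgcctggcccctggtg
Cycs, chr6:50566570-50566689, minus strand, NRF1 letters: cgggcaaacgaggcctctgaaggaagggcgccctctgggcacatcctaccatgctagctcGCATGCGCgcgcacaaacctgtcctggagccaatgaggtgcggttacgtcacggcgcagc

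Windows from 250 bases before to 50 bases after the start were searched on both strands for GCATGCGC (NRF1), CCGGAAG (ETS), AAGATGGC (YY1) and TCAAGGTCA (ERR), and 75 of the 91 tested members had a window. The NRF1 letters stood in 13 of the 75 (17.3%), against 2.80% of windows of 27025 genes. The 27025 are all genes with a window, tested on the arrays or not, and were not matched to the members in signal. ETS letters were in 18 members (24.0%, against 9.12% of all), YY1 letters in 10 (13.3%, against 2.88%) and ERR letters in 2 (2.67%, against 0.407%). ETS and YY1 letters occurred together in 1 member and overlapped in none. The members that fell at the high dose and 3.5 h carried the NRF1 letters in 2 of 12 windows (16.7%), and the other members in 11 of 63 (17.5%). The ETS letters were in 2 of 12 (16.7%) and 16 of 63 (25.4%). A match describes the letters in a window, not a bound site, and no difference between these shares was tested.

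The members are abundant transcripts. All 91 were well above background on all 8 arrays, against 77.3% of the genes tested, and their median probe signal over channels and arrays was 12.51 on the log2 scale, against 8.79 for all genes. In each array the median over members and the spread around it were first compared with the replicate. At the low dose and 3.5 h the median log2 ratio of the members was 0.20 on replicate 1 and -0.17 on replicate 2. With the high dose it was -0.80 and -0.05 at the same time. So replicate 1 held most of the downward shift: 83 of 91 members lay below 0 there and 48 on replicate 2. At 48 h the medians were 0.17 and 0.05 with the low dose, and 0.35 and -0.07 with the high dose. Ratios of the replicates correlated across members at r = 0.37 (low dose) and 0.44 (high dose) after 3.5 h, and at r = 0.46 and 0.81 after 48 h. Members share each array and are not independent replicates.

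**Figure D1:**
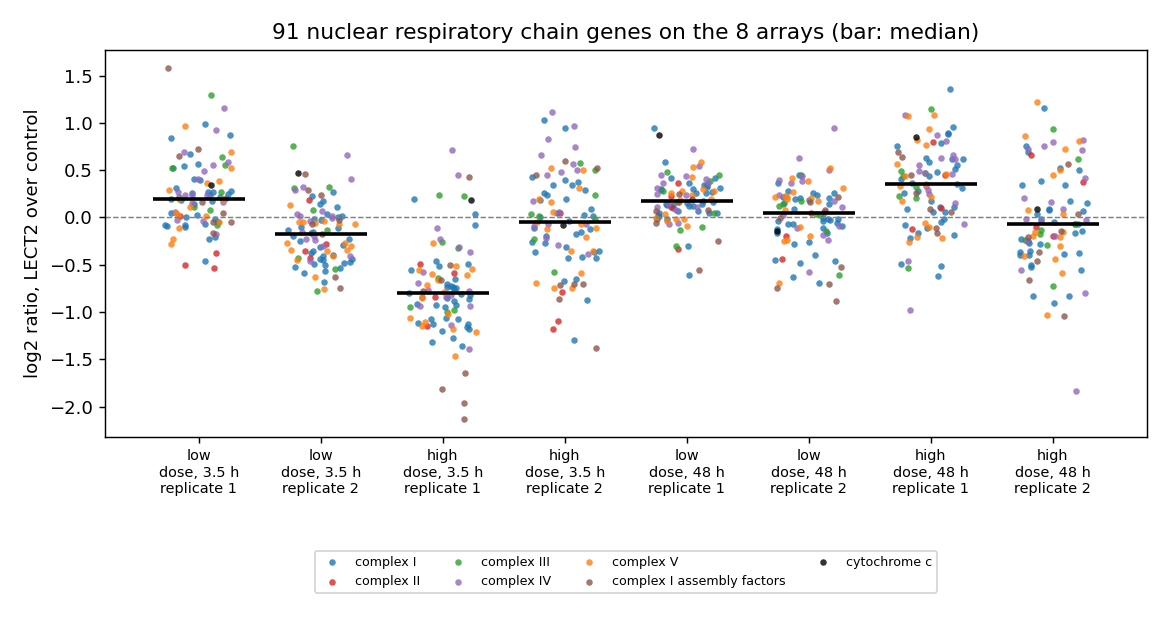
Log2 ratio of LECT2 over control (vertical axis) of the 91 members on each of the 8 arrays (horizontal axis), 1 point per gene coloured by complex, with a bar at the median of each array. The medians lie between -0.80 (high dose, 3.5 h, replicate 1) and 0.35 (high dose, 48 h, replicate 1), and in 2 of the 4 groups, the low dose at 3.5 h and the high dose at 48 h, the replicates have medians on opposite sides of 0.

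With the high dose for 3.5 h, 13 of the 91 members fell and none rose in limma's moderated test (adjusted p under 0.05 over all 26123 genes), where 21.9% of all genes were called. They were 5 subunits of complex I, 3 of the 4 subunits of complex II, 2 subunits of complex V and 3 complex I assembly factors, with fold changes from 1.61 to 3.18. No subunit of complex III or IV, and not Cycs, passed. The 13 lower members make 14.3% of the list, close to the background, since 11.7% of all genes tested were lower and 10.2% higher in this comparison. In this fit the count alone is therefore no result about the respiratory chain. With the matched scanner files centred on their medians, and no correction for brightness, 72 of 89 members (80.9%) were lower, against 34.4% of all genes and 59.3% of the 6212 brightest genes. There the member median was -0.95 relative to that of all genes. In the main fit 26 of 91 members had an unadjusted p under 0.05 in either direction, and so did 9738 of all 26123 genes. The median member stood at -0.42, against -0.03 for all genes and -0.14 for the 6531 brightest genes, which hold 75 of the 91 members, and 43 members (47.3%) were below 0 on both arrays, against 36.8% of all genes. Without replicate 1 no member passed and the median was -0.05, and without replicate 2, 4 members passed at a median of -0.80. With the scanner files taken as recorded in place of those matched to the deposited columns, no member and no gene on the array passed, a conflict set out under the processing.

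Complex II oxidises succinate to fumarate. Sdhb, its iron-sulfur subunit, read -1.15 and -1.10 on the replicates of the high dose at 3.5 h, a mean of -1.12 ± 0.20 (SE, n = 2; 2.18-fold lower, adjusted p 0.00891, limma). Sdhd, a membrane anchor subunit, read -0.84 and -1.18 (mean -1.01 ± 0.22, adjusted p 0.0170). The flavoprotein Sdha, which holds the succinate site, read -0.59 and -0.79 (mean -0.69 ± 0.21, adjusted p 0.0495). These 3 genes were below 0 on both arrays, and replicate 2 was the lower array for Sdhd and Sdha, unlike the list as a whole. Sdhc, the other membrane anchor, read -0.49 and 0.04 (mean -0.22 ± 0.22, adjusted p 0.497) and did not pass. Its second probe stood on the other side of 0, at a mean of 0.44. At the low dose and 3.5 h the means were -0.47 for Sdhb, -0.40 for Sdha, -0.37 for Sdhd and 0.10 for Sdhc, none of which passed. Without replicate 1, and likewise without replicate 2, no gene of complex II passed, the remaining array being assumed to vary like the other groups, and 2 did with no background filter or with loess on the matched scanner files.

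Complex I takes electrons from NADH. Its 36 members had a median of -0.42 at the high dose and 3.5 h, and 5 of them (13.9%) fell. With the mean of all probes 3 of the 36 were lower, and 11 of all 91 members. Ndufb5, a membrane-arm subunit, read -1.27 and -0.65 (mean -0.96 ± 0.28, adjusted p 0.0432), with a second probe at -0.50. Ndufv2, an iron-sulfur subunit of the NADH-oxidising tip, read -1.16 and -0.67 (mean -0.91 ± 0.23, adjusted p 0.0304). Ndufb4, a membrane-arm subunit, read -1.36 and -0.42 (mean -0.89 ± 0.26, adjusted p 0.0486), with a second probe at -0.86. In these 3 replicate 1 was the lower array, as it was for the list as a whole. Ndufs1, the largest iron-sulfur subunit, went the other way, with -0.46 and -1.30 (mean -0.88 ± 0.26, adjusted p 0.0477). Ndufa10, a subunit with a nucleoside-kinase fold, read -0.72 and -0.87 (mean -0.80 ± 0.21, adjusted p 0.0350) and, like Atp5pb at this time, lies outside the rule of the 10 largest changes and is named after its values were seen. Of the remaining 31 subunits, 2 had a mean above 0, Ndufa7 at 0.48 and Ndufa2 at 0.22, and for both of these replicate 1 lay below 0 and replicate 2 above 0. Ndufv1, the subunit that binds NADH, stood at 0.04 and -0.26.

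The complex I assembly factors, which help build the enzyme and are absent from the finished complex, included the largest fall among the members. Ndufaf7, a methyltransferase, read -1.96 and -1.38 (mean -1.67 ± 0.25, 3.18-fold lower, adjusted p 0.00511). Ndufaf2 read -1.81 and -0.72 (mean -1.27 ± 0.30, adjusted p 0.0244), and Ndufaf4 read -1.64 and -0.70 (mean -1.17 ± 0.34, adjusted p 0.0458). In these genes both arrays were below 0, and replicate 1 was the lower of the pair. Ndufaf6, at -2.13 and -0.86, had a larger mean than Ndufaf2 (-1.50 ± 0.45) but an adjusted p of 0.0516, just outside the threshold. Ndufaf5, at 0.43 and 0.45, and Ndufaf3, at -0.50 and 0.60, had means above 0 and did not pass.

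Complex III, which passes electrons from ubiquinol to cytochrome c, had no called subunit at 3.5 h (median -0.25 at the high dose). Its core protein Uqcrc2 had the largest change, -0.64 and -0.57 (mean -0.60 ± 0.24, adjusted p 0.108), and the Rieske iron-sulfur protein Uqcrfs1 stood above 0 on both arrays, at 0.23 and 0.57 (mean 0.40 ± 0.21, adjusted p 0.196). Cycs, whose promoter is printed above, read 0.18 and -0.08 (adjusted p 0.921). Complex IV, the cytochrome c oxidase, had a median of -0.14, and its medians on the replicates, -0.76 and 0.45, stood on opposite sides of 0.

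Several subunits of complex IV exist as pairs of isoforms that differ between tissues or conditions. None of the isoforms passed the main test in a comparison with the control, but some passed in alternatives, in both directions. With the strict background filter Cox4i2 was higher at the high dose (adjusted p 0.032 after 3.5 h and 0.0397 after 48 h). It was also higher with loess on the matched scanner files after 3.5 h (adjusted p 0.0327), and Cox6b1 passed after 48 h in alternatives given below. At the high dose and 3.5 h Cox4i1, Cox6a1, Cox7a2, Cox7a2l and Ndufa4 were each called lower in at least 1 alternative. With the matched scanner files centred on their medians, 9 of 16 complex IV members were lower there, against 34.4% of all genes. With the mean of all probes 1 of 17 was lower. After 3.5 h with the high dose Cox4i2, the isoform known from lung and low oxygen, read 0.71 and 0.83 (mean 0.77 ± 0.23, adjusted p 0.0521), while the common isoform Cox4i1 read -0.76 and 0.48. Cox4i2 was above 0 on all 8 arrays, with means of 0.62 and 0.77 after 3.5 h (low dose, then high dose) and of 0.59 and 0.83 after 48 h, and adjusted p from 0.0521 to 0.459. Cox6a1 (-1.40 and 0.50) and Cox6b1 (-0.93 and 0.66) split in sign between the arrays, and so did Cox8a (-0.57 and 0.96). The muscle isoforms Cox6a2 and Cox7a1, at means of 0.32 and 0.07, and the testis isoform Cox6b2, at 0.44, also had arrays on both sides of 0. Cox7a2 (-0.78 and 0.18), Cox7a2l (-0.70 and -0.38), Ndufa4 (-0.84 and -0.07) and Ndufa4l2 (0.45 and -0.10) did not pass the main test either.

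Complex V is the ATP synthase. Its 17 members had a median of -0.41 at the high dose and 3.5 h, and 2 (11.8%) fell. Atp5j, the coupling factor 6 of the stalk, read -1.15 and -0.58 (mean -0.87 ± 0.25, adjusted p 0.0439). Atp5pb, subunit b of the peripheral stalk, read -0.71 and -0.69 (mean -0.70 ± 0.21, adjusted p 0.0485). Atp5a1, the alpha subunit of the catalytic head, read -1.07 and -0.74 (mean -0.90 ± 0.27), with an adjusted p of 0.0520, so the next value outside the threshold was larger in size than some inside it. The catalytic beta subunit Atp5b stood at -0.27 and -0.36.

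**Figure D2:**
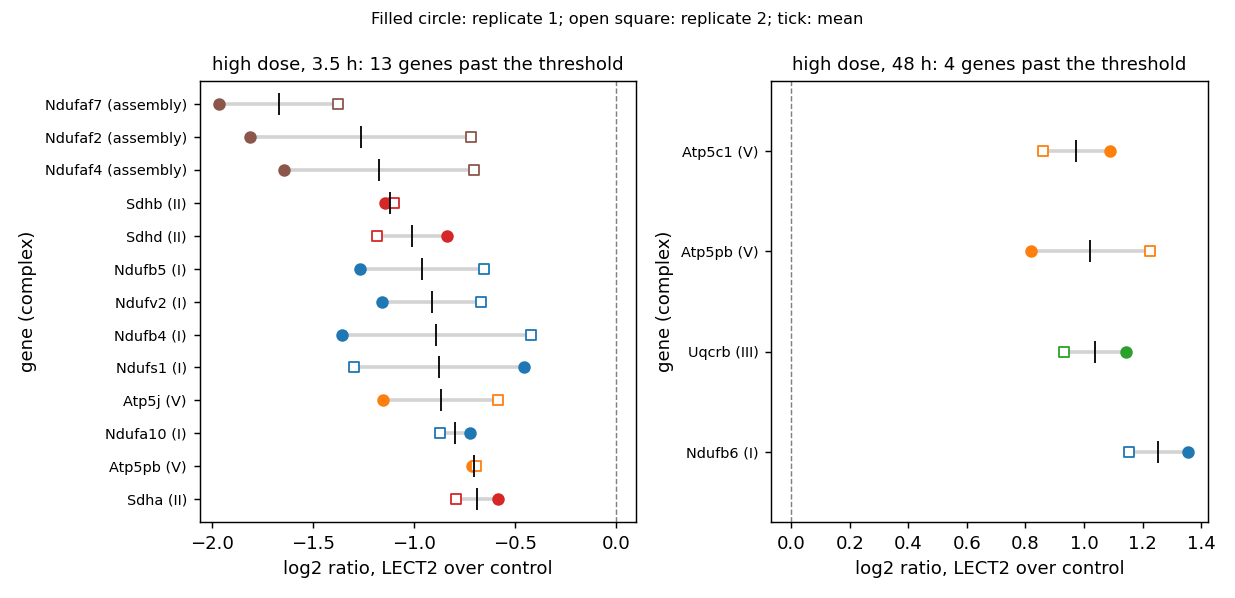
Log2 ratio of LECT2 over control (horizontal axis) of each member past the threshold (vertical axis, with its complex) at the high dose after 3.5 h (left, 13 genes) and 48 h (right, 4 genes), with replicate 1 as a filled circle, replicate 2 as an open square and the mean as a tick. All 13 lie below 0 on both arrays at 3.5 h, down to -1.96 for Ndufaf7, and the 4 at 48 h lie above 0 on both, up to 1.35 for Ndufb6.

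At the low dose and 3.5 h no member passed limma's test in either direction, where 4.88% of all genes were called (2.15% lower and 2.73% higher). An unadjusted p under 0.05 was found in 4 of 91 members and in 5785 of the 26123 genes. The median member stood at 0.01 and 21 of 91 were below 0 on both arrays, against 32.8% of all genes. The largest changes by complex were Ndufa7 in complex I (0.98 and 0.27), Uqcrq in complex III (1.29 and 0.31), Cox5b in complex IV (1.16 and 0.32) and Atp5k in complex V (0.96 and -0.06), in all of which replicate 1 was the higher array. In complex II the largest was Sdhb, below 0 on both arrays at -0.50 and -0.43. The lowest adjusted p of these 5 was 0.196, for Uqcrq. Cycs read 0.34 and 0.47.

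The difference between the doses was tested in the same fit. At 3.5 h the high dose stood below the low dose in 84 of 91 members, by a median of -0.41, against -0.03 for all genes. Among all 26123 genes it stood below in 13578. No member passed (5 had an unadjusted p under 0.05), and no gene on the array did either (0% called, 2046 genes at an unadjusted p under 0.05). The SE of such a difference was 0.39 at the median member, about the size of the difference itself. An effect that passed at the high dose and not at the low dose is thus not shown to differ between them.

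After 48 h with the high dose, 4 members rose and none fell (4.4%), in a comparison in which 4.3% of all genes were higher and 6.92% lower. This share again equals the background. Ndufb6, a membrane-arm subunit of complex I, read 1.35 and 1.15 (mean 1.25 ± 0.30, 2.39-fold higher, adjusted p 0.0380). Uqcrb, a small subunit of complex III, read 1.14 and 0.93 (mean 1.04 ± 0.23, adjusted p 0.0313). Atp5pb, lower at 3.5 h, read 0.82 and 1.23 (mean 1.02 ± 0.21, adjusted p 0.0250), and Atp5c1, the gamma subunit that turns in the catalytic head, read 1.09 and 0.86 (mean 0.97 ± 0.26, adjusted p 0.0499). These 4 had both arrays above 0. They lost the call without either replicate, with the files as recorded, where Atp5pb (-0.14) and Atp5c1 (-0.42) changed sign, and with each matched scanner file centred on its median, where 18 members (20.2%) were called lower instead, against 26.1% of all genes. With no background filter 1 of them passed. A second probe read 0.50 for Ndufb6 and 0.10 for Atp5c1. With the mean of all probes 2 of the 4 passed, and Ndufb6 did not.

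After 48 h with the high dose the 91 members had a median of 0.12 and split around 0, with 38 (41.8%) above on both arrays and 22 below on both. Of all 26123 genes 32.8% were above on both and 35.9% below on both. Cox6b1, a subunit at the dimer face of complex IV, had the largest change of any member at this time, -0.98 and -1.83 (mean -1.41 ± 0.39), yet an adjusted p of 0.0598. It passed limma's test with a stricter background filter (adjusted p 0.0397) and with loess on the matched scanner files (adjusted p 0.0346). These were not the only settings in which it passed, since its lowest adjusted p over the alternatives was 0.00539. Its effect over the settings ran from -2.07 to 0.25. Its paralogue Cox6b2 read -0.47 and -0.55. Cox4i2 stood at 0.87 and 0.79 (adjusted p 0.0606), Cycs at 0.85 and 0.09, and the complex II genes at means of 0.41 for Sdhb, 0.73 for Sdhd, 0.00 for Sdha and -0.16 for Sdhc. Sdhd, at 0.80 and 0.66, had an adjusted p of 0.0712. On their second probes Sdhc stood at 0.64 and Sdhb at -0.08, each with the sign opposite to its brightest probe.

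At the low dose and 48 h no member passed, where 0.172% of all genes did (0.0191% lower and 0.153% higher). An unadjusted p under 0.05 was found in 3 of 91 members and in 2640 of the 26123 genes. The median member stood at 0.12, and 14 of 91 were below 0 on both arrays, against 29% of all genes. The largest changes by complex were Ndufs1 in complex I (-0.61 and -0.70), Sdha in complex II (-0.33 and -0.44), Uqcrc2 in complex III (-0.30 and -0.61), Cox4i2 in complex IV (0.24 and 0.95) and Atp5pb in complex V (0.43 and 0.39). Each of them had both arrays on the same side of 0, and the lowest adjusted p was 0.459. No difference between the high and the low dose was detected at 48 h in any member (0% of all genes called, 2737 genes and 3 members at an unadjusted p under 0.05). The median difference was 0.02, and the SE of such a difference was 0.39 at the median member.

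The LECT2 effect was also compared between the times. At the high dose the LECT2 effect was higher at 48 h than at 3.5 h in 79 of 91 members, by a median of 0.57, against -0.04 for all genes. It was lower in the other 12 members and in 13532 of all 26123 genes. In 6 members (6.59%) this difference passed the test, all of them upward, where 8.31% of all genes passed (4.52% upward and 3.79% downward), so this share too is near the background. They were the assembly factor Ndufaf2 (difference 1.89 ± 0.43, adjusted p 0.0402), Sdhd (1.74 ± 0.31, adjusted p 0.0234), Sdhb (1.53 ± 0.29, adjusted p 0.0247) and the 3 ATP synthase genes Atp5pb (1.73 ± 0.29, adjusted p 0.0218), Atp5h (1.71 ± 0.41, adjusted p 0.0458) and Atp5c1 (1.62 ± 0.36, adjusted p 0.0390). Atp5h, subunit d of the peripheral stalk, passed in neither comparison with the control, at -1.18 and -0.35 after 3.5 h and 1.07 and 0.81 after 48 h. Each of these 6, on its brightest probe, was below 0 on both early arrays and above 0 on both late arrays. A second probe at 48 h read -0.08 for Sdhb, 0.10 for Atp5c1 and 0.36 for Atp5h, and with the mean of all probes these 3 no longer passed (differences 1.24, 1.21 and 1.30). In all, 17 members (18.7%) were below 0 early and above 0 late on every array, against 9.56% of all genes. Each time apart, 47.3% of members were below 0 on both early arrays and 41.8% above 0 on both late arrays. For all genes these shares were 36.8% and 32.8%. Whether the early and late shifts are linked within genes was not tested. None of the 6 passed when either replicate was left out. The early arrays lie on one slide and the late arrays on another under the file link used here, so slide and time cannot be told apart. At the low dose no difference between the times was detected in a member, where 0.0995% of all genes passed (0.0842% lower and 0.0153% higher). There 2 of 91 members and 2718 of the 26123 genes had an unadjusted p under 0.05.

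**Figure D3:**
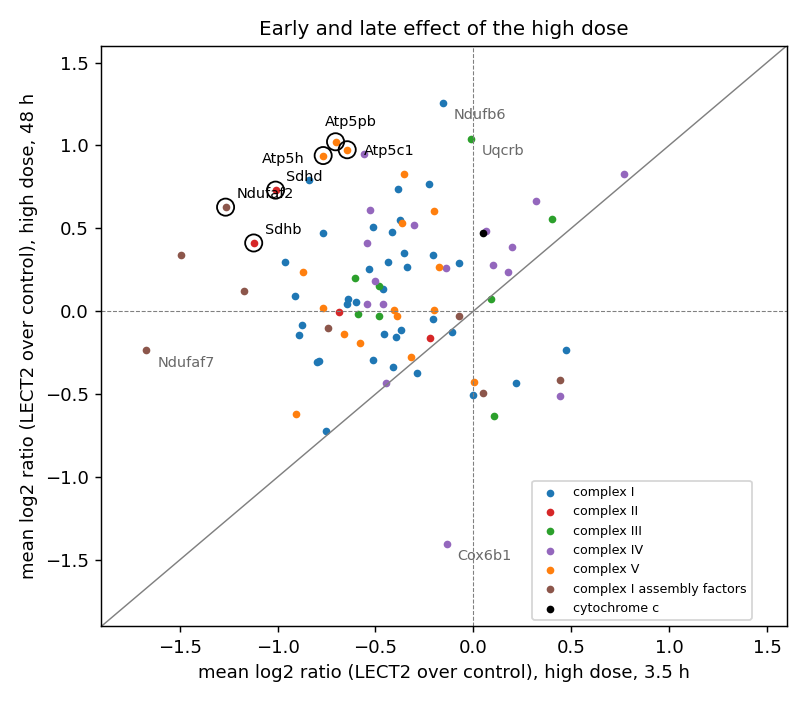
Mean log2 ratio of LECT2 over control at the high dose after 3.5 h (horizontal axis) and after 48 h (vertical axis) for the 91 members, coloured by complex, with the line of equal values and dashed lines at 0. Circles mark the 6 genes whose difference between the times passed the test, all in the upper left, from 1.53 (Sdhb) to 1.89 (Ndufaf2), and Cox6b1 lies alone at -1.41 on the late axis.

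Factors that assemble the complexes were examined beside the subunits they build. Of 43 tested genes of this list, which includes Ndufaf1 to Ndufaf8, 14 (32.6%) were lower and none higher at the high dose and 3.5 h, with a median of -0.65, against 14.3% of the members and 11.7% of all genes lower. The difference between these shares was not tested. With the matched scanner files centred on their medians, 33 of 42 assembly factors were lower and 1 higher. There 72 of 89 members and 34.4% of all genes were lower, so the list did not stand apart from the members. With the files as recorded 0 of the 42 were lower and 0 higher. The list has 10 lower genes without replicate 2 and 1 without replicate 1. Sdhaf3, an assembly factor of complex II, read -3.27 and -1.91 (mean -2.59 ± 0.36, adjusted p 0.0038), with its LECT2 signal well above background on 1 of the 2 arrays. Sdhaf1 (-2.04 and -0.56) and Sdhaf4 (-1.73 and -0.60), which serve the same complex, fell as well, at means of -1.30 and -1.17. Coa6, a copper-handling factor of complex IV, read -2.35 and -1.88 (mean -2.11 ± 0.21, adjusted p 0.00139), although no structural subunit of complex IV was called in the main fit. Tmem126b, a complex I assembly factor, read -1.92 and -1.48 (mean -1.70 ± 0.32, adjusted p 0.0111). Surf1 (complex IV) and Bcs1l and Uqcc3 (complex III) were also lower, at means of -1.39, -0.89 and -1.24. At 48 h and the high dose only Atpaf2, an assembly factor of ATP synthase, passed, with -0.80 and -1.04 (mean -0.92 ± 0.21, adjusted p 0.0347), and it was at -0.83 after 3.5 h.

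Among 18 tested regulators of mitochondrial genes 3 were lower and 2 higher at the high dose and 3.5 h (16.7% and 11.1%, near the 11.7% and 10.2% of all genes), and none passed at 48 h. Ppargc1b, a coactivator that drives mitochondrial genes, read -2.93 and -1.44 (mean -2.18 ± 0.33, adjusted p 0.00518). Tfb2m, a transcription factor of mitochondrial DNA, read -2.88 and -1.59 (mean -2.23 ± 0.34, adjusted p 0.00488), and its relative Tfb1m, a ribosomal RNA methyltransferase, had a mean of -1.23. The LECT2 signal of these 3 was well above background on 1 of the 2 arrays. Of the factors named for the promoter letters, Nrf1 read 0.52 and 0.69 (adjusted p 0.0885), Gabpa -0.29 and -0.45, Yy1 -0.01 and -0.61, and Esrra 0.06 and 1.05, and none of these 4 passed. Ppara, a nuclear receptor of fat oxidation, rose to 1.18 ± 0.20 (adjusted p 0.00738). Esrrg, an orphan receptor of the ERR family, was also called higher, its control signal not well above background on either array. With its control set no lower than the dimmest control signal called well above background, Esrrg was 3.08-fold higher on the matched scanner files. That floor (6.403 on the log2 scale) lies near its own control signal (6.36), so the fold is not a firm lower limit. Esrrg passed the filter only through LECT2 channels at 3.5 h (3 arrays), so it had to differ, and with the strict filter 1 regulator is higher.

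Glycolysis breaks glucose down to pyruvate outside the mitochondrion. At the high dose 5 of 24 (20.8%, against 10.2% of all genes) were higher and 1 lower after 3.5 h, and 7 (29.2%, against 4.3%) were higher and none lower after 48 h. The medians were 0.28 and 0.71, but with the matched scanner files centred on their medians the early one was -0.36 (none higher and 8 of 22 lower) and the late one 0.17 (4 higher and 3 lower). The glucose transporter Slc2a1 was higher at both times (means 1.44 and 1.54), as were the kinases Hk2 (1.27 and 1.66) and Pfkfb3 (1.42 and 1.73). Pgk1 reached 2.42 ± 0.51 after 48 h (adjusted p 0.0277), while Ldhb, which favours lactate oxidation, was lower after 3.5 h (-1.05 ± 0.30, adjusted p 0.0446). None of the early calls remained without replicate 1, and none of the late calls remained without either replicate.

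The tricarboxylic acid cycle list of 18 genes had 2 lower and 2 higher at the high dose and 3.5 h (11.1% each, near the 11.7% and 10.2% of all genes). Acod1, which makes itaconate, stood at 3.89 and 3.39 there, at 3.67 and 3.51 with the low dose, and at 4.11 and 3.12 with the high dose after 48 h, called higher in all 3 (adjusted p 0.00163, 0.00545 and 0.00474). After 48 h with the low dose it read 3.39 and 1.89 (adjusted p 0.0665). Of the 4 pathway lists described here it is the 1 gene that passed at the low dose. Citrate synthase, Cs, rose to 0.95 ± 0.20 (adjusted p 0.0155), while the succinyl-CoA ligase subunit Suclg1, whose product feeds complex II, fell to -1.05 ± 0.23 (adjusted p 0.0179) and the isocitrate dehydrogenase subunit Idh3g to -0.80 ± 0.23. After 48 h Dlat, of the pyruvate dehydrogenase complex, and Mdh2, malate dehydrogenase, were higher at 0.95 and 0.82.

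**Figure D4:**
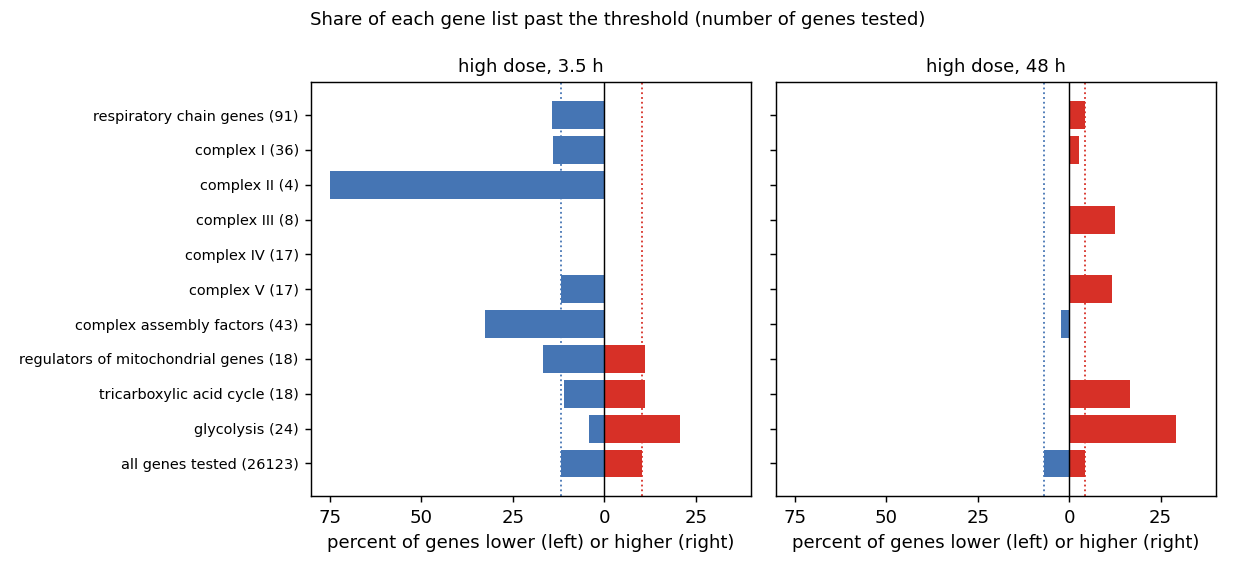
Percent of the genes of each list called lower (bars to the left) or higher (bars to the right) in the main fit. The high dose is shown after 3.5 h (left panel) and 48 h (right panel), with the number tested in parentheses and dotted lines at the shares of all 26123 genes. The respiratory chain genes (14.3% lower early, 4.4% higher late) lie near the dotted lines, complex assembly factors reach 32.6% lower early and glycolysis 29.2% higher late, and complex II rests on 4 genes.

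The labelled cell type and the direction of the ratio were checked on other genes. Of the fixed macrophage markers 9 of 10 were tested and all 9 were above background on all 8 arrays. Tnf, a cytokine of activated macrophages, read 5.57 and 5.60 at the low dose and 5.72 and 5.91 at the high dose after 3.5 h. After 48 h Tnf passed at neither dose in any setting. Over the main fit and the alternatives its late effect ran from 0.23 to 3.5 (low dose) and from -0.23 to 3.09 (high dose). Beside the lower respiratory chain genes of the high dose and 3.5 h, Lyz2 fell by 2.01 and Csf1r by 1.03 while Cd14 rose by 2.77. Of the 9 macrophage markers 2 were called lower and 1 higher there, and 6 did not pass. Their median was -0.07, with 3 below 0 and 3 above 0 on both arrays. Markers of other cells that a peritoneal wash can hold were also on the arrays. The median log2 ratio of the 8 mesothelium and fibroblast markers ran from -0.28 to -1.69 over the 8 arrays, with Wt1 and Pdgfra called lower, and that of the 3 tested red cell markers ran from 0.76 to 2.42 on the early arrays and from -0.07 to 0.20 on the late ones. B cell and T and NK cell markers were above background on all arrays in 6 of 6 and 7 of 8 genes, those of neutrophils in 3 of 5 and those of mast cells and eosinophils in 3 of 6. The T and NK cell median was above 0 on all 8 arrays (0.30 to 0.66), and the B cell median was -0.54 and -0.59 at the high dose and 48 h. The T and NK cell genes did not move as one. At the high dose and 48 h their means ran from -1.91 to 1.30, with 3 of 8 below 0. Ncr1 and Klrb1c were then above background on 2 control channels and on 0 LECT2 channels. The part of these cells in the results was not tested, and in such bulk RNA fewer cells of a type and less RNA per cell cannot be told apart.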

How the data were processed

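Two-colour arrays of 8 samples were analysed. Per the file headers, Agilent Feature Extraction 10.7.3.1 gave each scanner file the intensity of spot and background per channel and a log10 ratio, Cy5 over Cy3. The authors deposited a table of log2 values, 1 column per sample, whose making is not given in the sources used here. Compared with the scanner files it runs as control over LECT2, the opposite of the wording of the titles, so its sign was turned. For 7 of 8 columns the file that fits best carries another sample's record. In the 4 columns at 48 h most values equal a file's ratio (median absolute difference at most 3.73e-07, largest difference 1.09, r at least 0.998), 3 at 3.5 h follow a file at r = 0.893 to 0.966, and the column of replicate 1 of the low dose at 3.5 h reaches r = 0.578 with its own. Groups were taken from the columns, and matched and recorded files were run as alternatives. Under the matched link slide 1 held the 3.5 h arrays and slide 2 the 48 h arrays. Under the recorded link each slide held 1 replicate of every group, and a slide block equals the replicate block.

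Probes were kept if 1 channel was well above background on 2 or more of 8 arrays (31587 of 39428), named through RefSeq accessions (GRCm38.p6, names for 26405 probes), and the brightest probe was used per gene. Of the members 24 had several probes, and in the 9 called results among them no other probe went the opposite way. The test was limma 3.58.1 (R 4.3.3, with the data.table package at 1.17.8), 1 mean per group on 8 arrays, 4 residual degrees of freedom, Benjamini-Hochberg adjustment over 26123 genes at 0.05. The 2 arrays per group limit the precision. Genes were named by a rule: in each comparison with the control the called members, up to 10 by size in each direction, and the largest change of each complex, in each difference between doses or times up to 3, all of complex II, Cycs, the complex IV isoforms, up to 3 called genes of each list and Tnf. Further list genes and the other members given were added after their values were seen. Members, lists and tests were chosen with earlier results of these data known. Replicate deviations correlated between groups at r = 0.0451, 0.166, 0.198, 0.00138, -0.0587 and 0.47, not all above 0.1, so replicate numbers were not treated as pairs. Alternatives were no filter and a strict filter, a replicate block, centred columns, normexp (offset 50) with loess (span 0.3) or median centring, processed signals, trended and robust variances, the mean of probes and leaving out each replicate. The script was tested on simulated data.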

Additional observations from a re-analysis of the deposited data

Results flagged for a closer look

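In 6 members the LECT2 effect at the high dose differed between 48 h and 3.5 h by the test of the difference itself (limma, n = 2 arrays per group). The difference was 1.89 ± 0.43 (SE) on the log2 scale for Ndufaf2, which helps assemble complex I, 1.74 ± 0.31 for Sdhd and 1.53 ± 0.29 for Sdhb, subunits of complex II, and 1.73 ± 0.29 for Atp5pb, 1.71 ± 0.41 for Atp5h and 1.62 ± 0.36 for Atp5c1, subunits of ATP synthase. On its brightest probe each was below 0 on 2 of 2 early arrays and above 0 on 2 of 2 late arrays. With the mean of all probes Sdhb (1.24), Atp5c1 (1.21) and Atp5h (1.30) no longer passed. Slide and time cannot be told apart under the file link used, and under the files as recorded none of the 6 passed.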

How the results depend on the processing

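Calls of members changed with median centring, with the link of scanner files to samples and with single replicates. With 2 arrays per group, the SE of a member's log2 effect was 0.28 at the median member, and effects of that size cannot be settled. Members called at the high dose and 3.5 h, 13 in the main fit, were 4 with no filter, 72 (all lower) with median centring and 0 with the files as recorded, and 0 to 4 when a replicate was left out. At the high dose and 48 h the 4 members became 1 with no filter, 8 with the strict filter, 11 with loess, 18 (all lower) with median centring, 0 with the files as recorded, 2 with the mean of probes and 0 without either replicate. The 6 members that differed between the times at the high dose became 3 with no filter, 17 with loess, 9 with median centring, 9 with processed signals, 9 with the strict filter, 0 with the files as recorded, 3 with the mean of probes and 0 without either replicate. At the low dose and 3.5 h, 0 members became 1 with loess and 3 with median centring. Median centring moved the median of all genes by -0.13, -0.23, -0.15 and -0.23 (low and high dose early, then late), and that of the members to -0.44, -1.21, -0.34 and -0.54 (relative to all genes -0.32, -0.95, -0.21 and -0.30). The 6212 brightest genes stood at -0.48, -0.89, -0.50 and -0.74 there. The files as recorded gave a member median of -0.11 at the low dose and 48 h. The replicate block, although the numbers were not shown to pair samples, left 9 members lower at the high dose and 3.5 h (8 of the 13 among them), 4 higher at 48 h and 5 that differed between the times.

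Of 40 called results of named genes, 36 kept the call with the replicate block, 24 with no filter, 39 of 39 with the strict filter, 37 with centred columns, 38 of 39 with loess, 29 of 39 with median centring, 37 of 39 with processed signals, 38 with trended variances, 35 with the mean of probes, 5 without replicate 1 and 13 without replicate 2. With the files as recorded 0 of 39 did, and 12 changed sign. At the high dose and 3.5 h these were Ndufaf2 at 0.0194, Ndufaf4 at 0.10, Sdhb at 0.0297, Sdhd at 0.17, Atp5j at 0.0614 and Sdhaf3 at 5.34e-05. After 48 h they were Atp5pb at -0.14, Atp5c1 at -0.42 and Dlat at -0.22. For the difference between the times they were Ndufaf2 at -0.36, Sdhd at -0.75 and Atp5pb at -0.53. The cause was not tested, and every alternative that was planned could be run except a slide block, which the matched link does not allow.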
